A study of Mus musculus with 2 samples.

Results

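The mesenchymal and epithelial-to-mesenchymal transition (EMT) transcription factors examined here were 8 genes, namely the homeobox genes Prrx1 and Prrx2, the basic helix-loop-helix (bHLH) genes Twist1 and Twist2, and the zinc finger genes Snai1, Snai2, Zeb1 and Zeb2. They were found by symbol among the 32285 genes of the files, and all 8 were present. Mouse embryos of E11.5 (embryonic day) had been dissociated and their head cells sorted for single-cell RNA-seq of cranial neural crest, to ask how cells without the transcription factors encoded by Tfap2a and Tfap2b differ from control cells. The control library came from Tfap2a wt/flox; Tfap2b wt/flox embryos and the mutant library from Tfap2a flox/flox; Tfap2b flox/flox embryos. Both carried r26 mTmG/mTmG and Wnt1CRE+, so that recombined cells made membrane GFP and both groups held the CRE. GFP+ cells were sorted from heads cut off below the second arch. Each library pooled 2 embryos, and each group had 1 library. No replicate error could therefore be estimated, and no test was made. Values in parentheses after a ratio or share give its 95% counting interval, which covers no other error, and a level is called higher or lower only where that interval of the log2 ratio leaves out 0. Wnt1CRE also labels part of the midbrain and hindbrain, so that the sort held neural cells that are not neural crest.

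PRRX1 and PRRX2 are paired-type homeobox factors that mark limb and head mesenchyme and are needed together for the facial skeleton. TWIST1 and TWIST2 bind E-box sequences as dimers with E proteins, and TWIST1 is needed for neural crest cells to become mesenchyme in place of neural derivatives. SNAI1 and SNAI2 are repressors of epithelial adhesion genes that act when cells leave an epithelium, and SNAI2 is a classic marker of migrating neural crest. ZEB1 and ZEB2 repress a similar set of genes through the same kind of E-box, and ZEB2 is also made in neural progenitors, neurons and the Schwann cell lineage.

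The genes, apart from Zeb1, are given in GRCm38 coordinates, the assembly also called mm10. Prrx1 (ENSMUSG00000026586) lies at chr1:163245119-163313710 on the minus strand and Prrx2 (ENSMUSG00000039476) at chr2:30834972-30881251 on the plus strand. Twist1 (ENSMUSG00000035799) lies at chr12:33957671-33959829 and Twist2 (ENSMUSG00000007805) at chr1:91801461-91848028, both on the plus strand. Snai1 (ENSMUSG00000042821) lies at chr2:167538195-167542814 and Snai2 (ENSMUSG00000022676) at chr16:14705852-14709385, both on the plus strand, and Zeb2 (ENSMUSG00000026872) at chr2:44983632-45117395 on the minus strand.

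Since the mutant cells were made to lack TFAP2 proteins, the 250 bases before the start of each gene, taken from RefSeq on GRCm38.p6, were searched for the TFAP2 motif GCCNNNGGC and for the E-box CAGGTG or CACCTG to which SNAI and ZEB proteins bind, on both strands. No window was used for Snai2 or Zeb1, which left 6 of the 8 genes. The TFAP2 letters were in 4 of these genes, Prrx2, Twist2, Snai1 and Zeb2, beside 15.4% of all 27025 genes with a window and 13.7% of all 32851 windows. The E-box was in 1, Snai1, beside 19.4% of all genes and 17.2% of all windows. Prrx2 held the TFAP2 letters in 2 places. Zeb2 had 4 windows, and so more chances of a match than a gene with 1. It held the letters in 2 overlapping windows, both within the gene as placed above, and its window farthest upstream held none. The 4 sequences given here were chosen to set the windows of Snai1 and Twist2, which held the letters, beside those of Prrx1 and Twist1, the mesenchyme genes with no match. They run 5′ to 3′ on the strand of the gene and end at the base before its RefSeq start. For Prrx1 and Prrx2 that start lies inside the gene as placed above, so that part of the Prrx1 window and all of the Prrx2 window fall within it. Capitals mark GCCNNNGGC, which lay 87 to 79 bases before the start in Snai1 and 80 to 72 bases before it in Twist2, and CACCTG, 126 to 121 bases before the start in Snai1. The windows are chr2:167537945-167538194 for Snai1, chr1:91801211-91801460 for Twist2, chr1:163313651-163313900 on the minus strand for Prrx1 and chr12:33957421-33957670 for Twist1. A match describes letters in a window and is not a binding site, and no binding was measured in these libraries.
Snai1: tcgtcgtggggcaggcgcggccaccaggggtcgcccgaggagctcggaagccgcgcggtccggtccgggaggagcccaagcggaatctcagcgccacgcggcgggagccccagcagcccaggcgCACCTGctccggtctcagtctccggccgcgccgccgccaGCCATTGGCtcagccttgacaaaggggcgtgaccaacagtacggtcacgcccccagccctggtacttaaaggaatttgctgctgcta
Twist2: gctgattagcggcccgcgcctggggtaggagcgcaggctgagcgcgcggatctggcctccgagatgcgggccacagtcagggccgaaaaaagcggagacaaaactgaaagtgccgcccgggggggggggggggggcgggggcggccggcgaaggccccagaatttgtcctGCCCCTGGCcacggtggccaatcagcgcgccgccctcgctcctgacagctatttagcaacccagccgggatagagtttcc
Prrx1: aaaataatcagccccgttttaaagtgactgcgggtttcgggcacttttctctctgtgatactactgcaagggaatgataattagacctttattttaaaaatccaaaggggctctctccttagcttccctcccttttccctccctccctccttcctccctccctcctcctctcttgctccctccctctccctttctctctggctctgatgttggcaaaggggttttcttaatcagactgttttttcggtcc
Twist1: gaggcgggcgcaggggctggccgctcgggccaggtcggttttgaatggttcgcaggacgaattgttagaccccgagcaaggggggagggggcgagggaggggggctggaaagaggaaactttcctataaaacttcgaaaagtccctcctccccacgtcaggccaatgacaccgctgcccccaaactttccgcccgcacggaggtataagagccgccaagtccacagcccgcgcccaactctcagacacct

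After filtering, there remained 5625 cells in the control library (median 13478 UMIs per cell) and 5587 in the mutant library (median 12234). A UMI tags 1 captured transcript, and levels are given as CPM, the UMIs of a gene per 1000000 UMIs of the same cells. The cells fell into 4 classes, with 3801 control and 2864 mutant mesenchyme-like cells, 785 and 1267 brain progenitor-like cells, 778 and 1255 neuron-like cells, and 261 and 201 glia-like cells. Each marker of a class, 10 of 10 in the first 3 and 8 of 8 for glia, none of them a member, was higher in that class than in the rest. The mesenchyme-like cells formed 6 clusters, which were called frontonasal-like, maxillary-like, second arch-like, mandibular-like and mural-like (perivascular) by their markers, with 1 unnamed. The unnamed cluster of 93 control and 132 mutant cells was led by neural genes such as Pou3f2, Otx2 and Sox2, and 41.9% and 54.5% of its cells were called doublets. Ratios of the class are therefore also given without it. No member took part in clustering, but genes that follow them did, so that differences between clusters are a description. Of the targeted genes in mesenchyme-like cells as a whole, Tfap2a went from 19.5 to 13.6 CPM (log2 ratio -0.53, -0.67 to -0.38) and Tfap2b from 58.0 to 47.9 CPM (-0.27, -0.35 to -0.20). Tfap2a was highest of the mesenchyme clusters in frontonasal-like cells, at 46.9 and 27.1 CPM (-0.79, -0.99 to -0.59). Both genes were also lower in mutant neuron-like cells (Tfap2a at -0.32, -0.50 to -0.15, and Tfap2b at -0.36, -0.43 to -0.28). In mutant glia-like cells Tfap2b was lower too (-0.27, -0.41 to -0.13). In some groups of cells 1 or both were higher in the mutant library. Tfap2b was higher in mutant second arch-like cells (3.61 to 9.09 CPM, 1.33, 0.76 to 1.93), maxillary-like (0.53, 0.03 to 1.03) and mandibular-like cells (0.67, 0.04 to 1.29), and Tfap2a in second arch-like (16.2 to 20.3 CPM, 0.33, 0.02 to 0.63) and glia-like cells (78.1 to 118.6 CPM, 0.60). A 3′ count does not tell an intact transcript from one of a recombined allele. Xist UMIs were seen in 98.8% of cells of the control and 0.107% of the mutant library and transcripts of the Y chromosome in 0.0356% and 82.0%, so that in each mutant and control pair of values sex and genotype cannot be told apart. Of the kept barcodes, 5 occurred in both libraries.

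Across the 4 classes the 8 genes fell into 2 patterns. Prrx1, Prrx2, Twist1, Twist2, Snai1 and Snai2 were highest in mesenchyme-like cells of both libraries, whereas Zeb1 and Zeb2 were highest in neural or glia-like cells. Prrx1 measured 510.0 CPM in control and 490.6 CPM in mutant mesenchyme-like cells, and between 11.02 and 37.6 CPM in the other classes. Twist1 measured 474.4 and 462.7 CPM in mesenchyme-like cells, and between 12.5 and 41.7 CPM elsewhere. Snai1 and Snai2 were also highest in mesenchyme-like cells, at lower counts, with 57.4 and 51.5 CPM in control cells against at most 10.6 and 6.12 CPM in any other class.

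Zeb2, by contrast, was highest in glia-like cells, at 313.1 CPM in control and 349.5 CPM in mutant cells. It was intermediate in brain progenitor-like cells (184.9 and 184.1 CPM) and neuron-like cells (131.6 and 126.9 CPM), and lowest in mesenchyme-like cells (42.3 and 58.2 CPM). Zeb1 was highest in neuron-like cells, at 131.9 and 124.2 CPM, and measured 49.7 and 57.8 CPM in mesenchyme-like cells. The share of cells with a UMI showed the same split after each cell was thinned to 5000 UMIs. Of glia-like cells 72.6% in control and 76.0% in mutant held a Zeb2 UMI, as did 15.2% and 19.9% of mesenchyme-like cells. For Prrx1 the shares were 70.0% and 70.1% of mesenchyme-like cells, against 4.16% and 3.59% of brain progenitor-like cells. Unthinned cells had median depths of 14516 (control) and 14358 UMIs (mutant) for mesenchyme-like and 11522 and 11314 for brain progenitor-like cells, and without thinning the share of mesenchyme-like cells with a Prrx1 UMI was 84.1% and 83.5%.

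**Figure D1:**
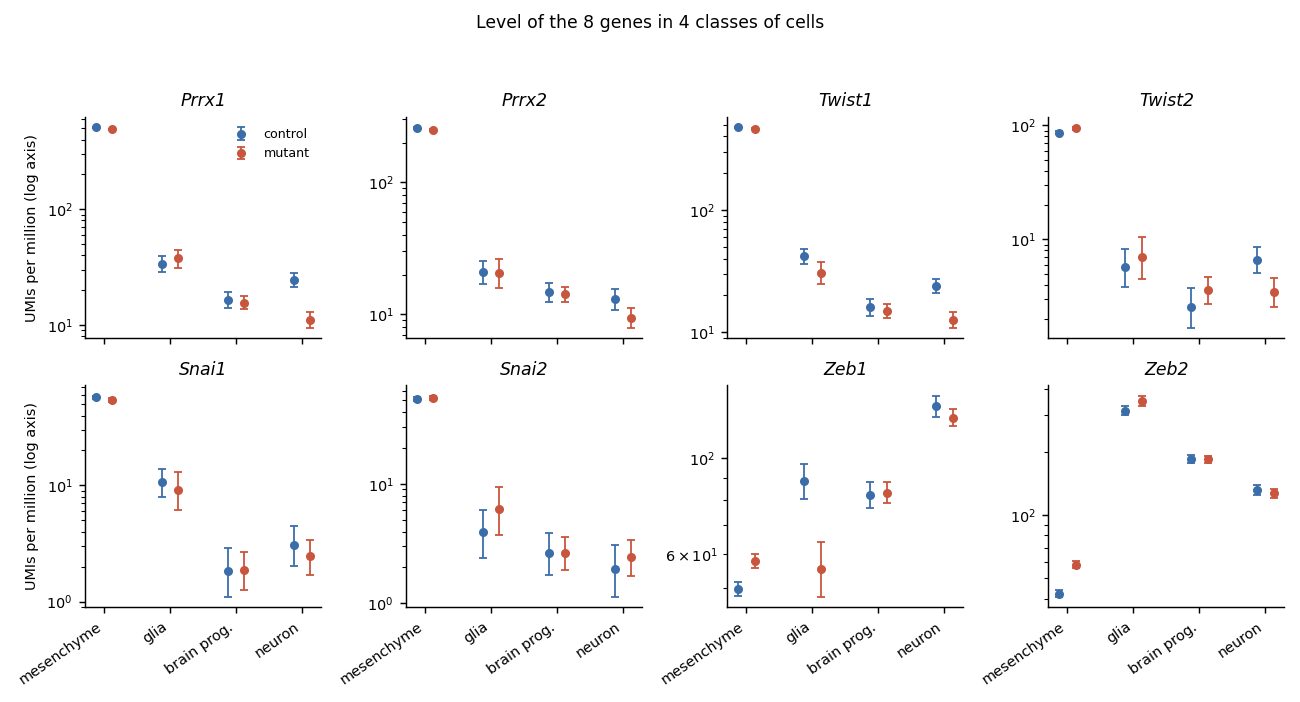
Level of each of the 8 genes in the 4 classes of cells, in CPM on a log axis, with 1 point for the control and 1 for the mutant library and bars for the 95% counting interval. Prrx1 to Snai2 are highest in mesenchyme-like cells (Prrx1 at 510.0 and 490.6 CPM), whereas Zeb2 is highest in glia-like cells (313.1 and 349.5 CPM) and Zeb1 in neuron-like cells (131.9 and 124.2 CPM).

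Within the mesenchyme the genes of each pair had different regional orders. In control cells Prrx1 was highest in the maxillary-like cluster at 753.9 CPM, then in mandibular-like (620.3 CPM) and second arch-like cells (472.8 CPM), and low in frontonasal-like (230.7 CPM) and mural-like cells (184.1 CPM). Prrx2 was also highest in maxillary-like cells (325.4 CPM), but frontonasal-like cells came next at 296.2 CPM and second arch-like cells held only 147.5 CPM. Prrx1 thus gave 76.2% of the UMIs of the Prrx pair in second arch-like cells and 43.8% in frontonasal-like cells. Twist1 was highest in maxillary-like (600.6 CPM), then mandibular-like (481.5 CPM) and frontonasal-like cells (436.0 CPM), and lowest of the 4 facial clusters in second arch-like cells (345.5 CPM). Twist2 had another order, with 141.4 CPM in second arch-like, 121.1 CPM in mandibular-like, 81.2 CPM in maxillary-like and 43.5 CPM in frontonasal-like cells. These neighbours in the control order of Twist2 were apart by more than their counting intervals, and the mutant library gave the same order. The orders of Twist1 and Prrx2 changed in the finer clustering described later. Its fine clusters 0 and 5 were named frontonasal-like and its fine cluster 2 maxillary-like. There control Twist1 measured 771.2, 361.3 and 473.1 CPM, in that order of clusters, and control Prrx2 447.2, 253.6 and 251.7 CPM.

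Snai1 was highest in mural-like (75.1 CPM) and frontonasal-like control cells (74.1 CPM), whose intervals overlapped, and lowest of the named clusters in second arch-like cells (30.4 CPM). Snai2 was highest in maxillary-like control cells (65.7 CPM), followed by frontonasal-like (48.6 CPM), mandibular-like (45.9 CPM), mural-like (40.1 CPM) and second arch-like cells (40.1 CPM). From frontonasal-like cells on, neighbours in this order had overlapping intervals. Zeb1 and Zeb2 were highest in the mural-like cluster of the mesenchyme, at 119.3 and 123.4 CPM in control cells. Among the 4 facial clusters Zeb1 ranged from 44.7 to 54.1 CPM, while Zeb2 ranged from 27.3 CPM in frontonasal-like to 54.2 CPM in second arch-like cells. The orders of Snai2 and Zeb2 also changed in the finer clustering. Control Snai2 measured 81.1 and 36.8 CPM in fine clusters 0 and 5 (frontonasal-like) and 48.3 CPM in fine cluster 2 (maxillary-like). Control Zeb2 measured 63.0, 16.9 and 22.4 CPM in the same clusters.

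**Figure D2:**
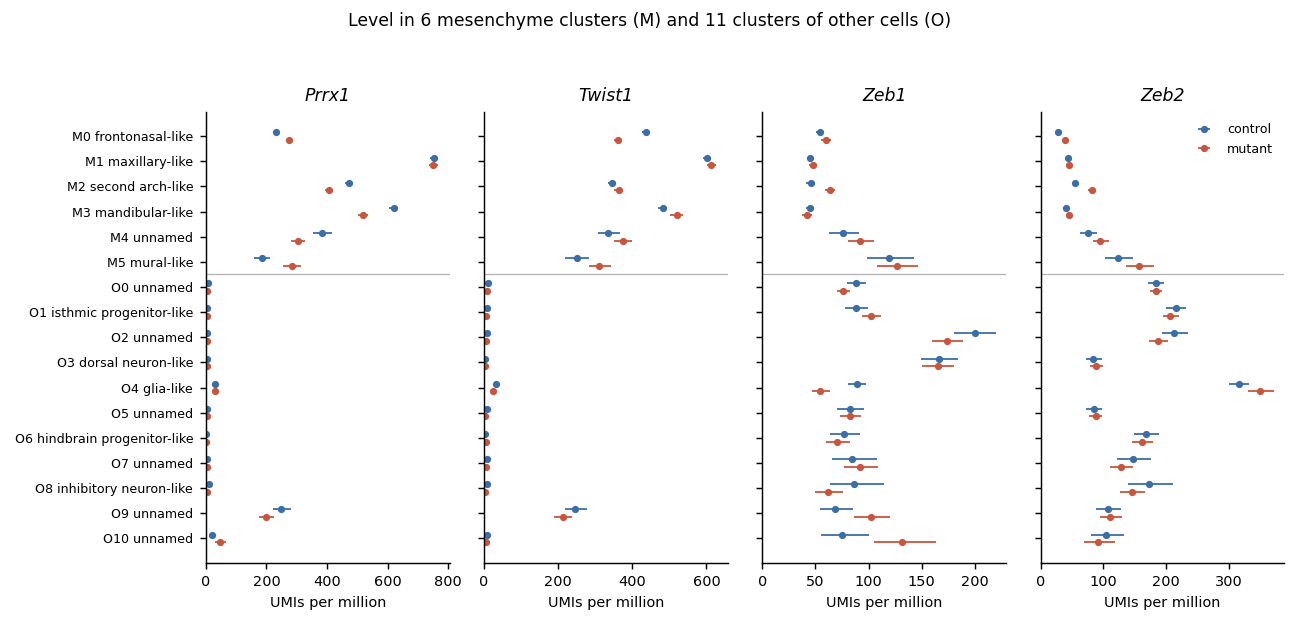
Levels of Prrx1, Twist1, Zeb1 and Zeb2 in CPM in the 6 mesenchyme clusters (M) and 11 clusters of the other classes (O), with 1 point per library and bars for the 95% counting interval. Prrx1 and Twist1 are high above the line that parts mesenchyme from other clusters and low below it, except in cluster O9, which is rich in doublets, and Zeb2 peaks in the glia-like cluster O4 (316.5 and 350.9 CPM).

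In mesenchyme-like cells as a whole, mutant and control levels of 7 of the 8 genes differed by a log2 ratio of less than 0.32 in size, the mark used here for counts of genes, and Zeb2 was the exception. Zeb2 went from 2485 UMIs or 42.3 CPM in control to 2574 UMIs or 58.2 CPM in mutant cells, a log2 ratio of 0.46 (0.38 to 0.54). Of all 11678 genes with at least 100 UMIs in 1 or both libraries, 6.8% were higher by 0.32 or more and 2.65% lower by as much, so that 1 of 8 members past this mark was near the background. Zeb1 went from 49.7 to 57.8 CPM (0.22, 0.14 to 0.29) and Twist2 from 86.4 to 94.4 CPM (0.13, 0.07 to 0.19). The other genes were nearly level. Prrx1 had a log2 ratio of -0.06 (-0.08 to -0.03), Prrx2 of -0.06 (-0.10 to -0.03), Twist1 of -0.04 (-0.06 to -0.01) and Snai1 of -0.09 (-0.17 to -0.01). Snai2 measured 51.5 and 52.7 CPM, with an interval that spanned 0 (-0.04 to 0.11). The median log2 ratio of all genes with at least 100 UMIs was 0.02. Without the doublet-rich clusters and 5 control barcodes rich in haemoglobin, Zeb2 was at 0.44, Zeb1 at 0.19, Twist2 at 0.14 and Snai2 at 0.03. Prrx1 and Twist1 were then at -0.03, Prrx2 at -0.05 and Snai1 at -0.09.

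Markers of other cells also moved in the mesenchyme-like class. The summed level of 10 brain progenitor markers was 18.05 CPM in control and 42.6 CPM in mutant cells, that of 10 neuron markers 193.1 and 280.2 CPM, and that of 8 glia markers 43.9 and 53.4 CPM, with all 10, all 10 and at least 7 of the genes found in each library. Only Foxd3, a glia marker, was at 0, in control cells. Their part in the higher Zeb1 and Zeb2 levels was not tested. When each library was given the same share of UMIs in the 6 clusters, the log2 ratio of Zeb2 was 0.33 and that of Zeb1 0.17. Over all kept cells Prrx1 went from 370.3 to 287.6 CPM and Zeb2 from 85.5 to 108.5 CPM, and these sums also moved with the share of mesenchyme-like cells, which was 67.6% in control and 51.3% in mutant.

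The near-level Prrx1 and Twist1 sums hid opposite differences between regions. In frontonasal-like cells Prrx1 was higher in the mutant library, with 230.7 CPM in control and 274.1 CPM in mutant (log2 ratio 0.25, 0.18 to 0.32). It was lower in second arch-like cells, with 472.8 and 405.3 CPM (-0.22, -0.28 to -0.16), and in mandibular-like cells, with 620.3 and 519.0 CPM (-0.26, -0.32 to -0.20). In maxillary-like cells, where Prrx1 was highest, the libraries measured 753.9 and 750.9 CPM (-0.01, -0.04 to 0.03). In second arch-like cells the summed maxillary markers went from 451.9 to 332.8 CPM and the mandibular markers from 393.2 to 257.8 CPM. In mandibular-like cells the mandibular markers went from 465.4 to 386.4 CPM and the mural markers from 129.8 to 195.7 CPM. The part of these markers in the Prrx1 values was not tested. Prrx2 differed in the opposite sense in each of the 3 regions where Prrx1 differed, although in frontonasal-like cells this ended when the cluster was split further, as given later. It was lower in frontonasal-like cells (296.2 to 268.1 CPM, -0.14, -0.21 to -0.08) and higher in second arch-like (147.5 to 185.5 CPM, 0.33, 0.23 to 0.43) and mandibular-like cells (210.5 to 232.8 CPM, 0.15, 0.05 to 0.24). In maxillary-like cells Prrx2 went from 325.4 to 304.2 CPM (-0.10, -0.15 to -0.04).

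The Prrx1 share of the pair summarised these differences over whole clusters, and it does not depend on how the libraries were scaled. It was 43.8% (42.8 to 44.8) of control and 50.5% (49.2 to 51.9) of mutant frontonasal-like UMIs of the pair, and 76.2% (75.1 to 77.3) and 68.6% (67.4 to 69.8) in second arch-like cells. In mandibular-like cells it was 74.7% and 69.0%, and in maxillary-like cells 69.9% and 71.2%. Over the 4 facial clusters the share ranged from 43.8% to 76.2% in control and from 50.5% to 71.2% in mutant, a narrower range. In mural-like cells the share was 42.6% and 56.2%. Over the whole class it was 66.3% and 66.4%. In the finer parts of frontonasal-like cells, described later, log2 ratios of Prrx1 and Prrx2 were 0.22 and 0.13, 0.04 and 0.12, and 0.44 and -0.11. The part at 0.04 and 0.12 held 375 of 1128 control and 357 of 710 mutant frontonasal-like cells. How far this mix of cells moved the share was not tested.

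**Figure D3:**
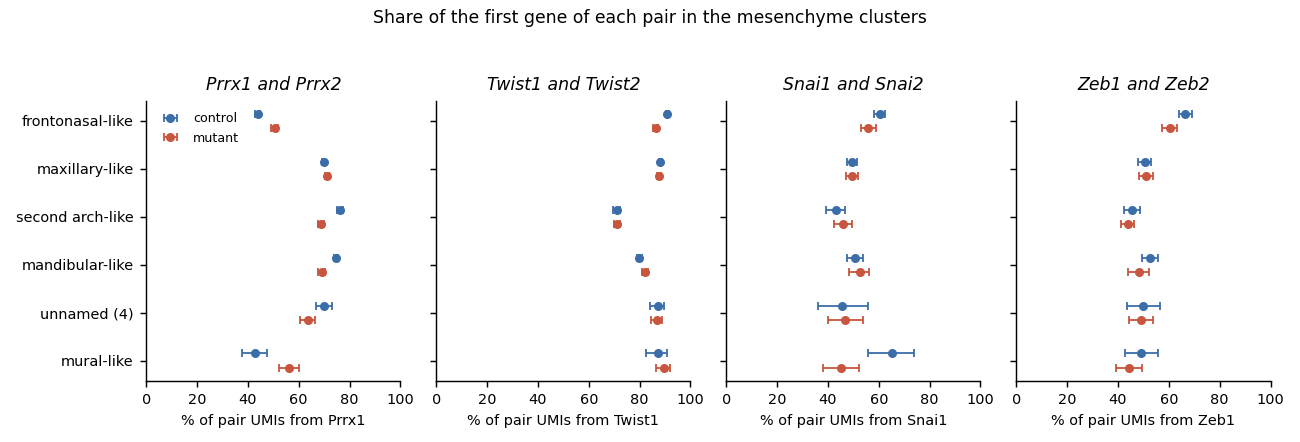
Share of the UMIs of each gene pair that came from its first gene, in percent, in the 6 mesenchyme clusters of the control and mutant libraries, with 95% counting intervals. With each cluster taken whole, the Prrx1 share is higher in mutant frontonasal-like cells (50.5% against 43.8%) and lower in mutant second arch-like cells (68.6% against 76.2%).

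Twist1, whose protein keeps neural crest cells mesenchymal, was lower in mutant frontonasal-like cells, at 361.1 CPM against 436.0 CPM in control (-0.27, -0.33 to -0.21). In the other named clusters it was level or higher, with log2 ratios of 0.03 (-0.01 to 0.07) in maxillary-like, 0.07 (0.00 to 0.14, spanning 0 with TMM scaling, which sets the scale of a library from the bulk of its genes) in second arch-like and 0.11 (0.05 to 0.17) in mandibular-like cells. Twist2 had its largest difference in the same frontonasal-like cells and in the other direction, from 43.5 to 57.1 CPM (0.39, 0.23 to 0.55), so that the Twist1 share of the pair was 90.9% in control and 86.3% in mutant. In mandibular-like cells Twist2 measured 121.1 and 112.8 CPM, with an interval that spanned 0. With Zeb2, which is described next, 2 of the 8 members were higher by 0.32 or more in frontonasal-like cells and none lower, beside 9.74% and 4.64% of 9570 genes. None of the 8 passed this mark in maxillary-like or mandibular-like cells, beside 2.69% and 3.11% of genes higher and 3.3% and 5.57% lower. In frontonasal-like cells the summed frontonasal markers were at 1015 CPM in control and 753 CPM in mutant, and the periocular and meningeal markers at 268.4 and 422.7 CPM, and their part in these values was not tested.

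Zeb2 was higher in mutant frontonasal-like cells, with 27.3 and 39.5 CPM (0.53, 0.33 to 0.73), and in second arch-like cells, with 54.2 and 81.3 CPM (0.58, 0.43 to 0.74). Maxillary-like and mandibular-like cells had Zeb2 intervals that spanned 0, with log2 ratios of 0.04 (-0.12 to 0.19) and 0.16 (-0.05 to 0.38). The Zeb2 ratios of frontonasal-like and maxillary-like cells changed when cells were grouped by a finer clustering, as given later. Zeb1 was higher in second arch-like cells, at 63.3 CPM against 45.4 CPM in control (0.48, 0.30 to 0.66), and its intervals in the other 3 facial clusters spanned 0. In second arch-like cells 3 of the 8 members, Prrx2, Zeb1 and Zeb2, were higher by 0.32 or more, Prrx2 only just, and none was lower, beside 7.66% and 3.23% of 8613 genes. The share of thinned second arch-like cells with a Zeb2 UMI was 18.04% in control and 27.6% in mutant, and that with a Zeb1 UMI 19.3% and 26.2%. In these cells the summed neuron markers went from 206.7 to 280.3 CPM, the glia markers from 36.1 to 46.5 CPM and the mural markers from 106.0 to 135.6 CPM. Their part in the Zeb1 and Zeb2 values was not tested.

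Since a cluster can hold several kinds of cell, the cells of each were also split by a finer clustering into 9 clusters, a split chosen after the data had been seen. The frontonasal-like cells fell mainly into 3 parts. Zeb2 was higher in the mutant library in 2 of them, at 33.7 and 49.2 CPM (0.55, 0.21 to 0.88) and at 33.9 and 51.9 CPM (0.62, 0.31 to 0.93), and measured 16.6 and 17.7 CPM in the other (0.09, -0.39 to 0.56). Taken whole, with their cells from other clusters, the fine clusters named frontonasal-like had Zeb2 intervals that spanned 0. These were fine cluster 0 (63.0 and 64.3 CPM, 0.03, -0.14 to 0.19) and fine cluster 5 (16.9 and 17.7 CPM, 0.07, -0.41 to 0.535). The part with 33.9 and 51.9 CPM, in a fine cluster led by Vtn and Tagln that also took all mural-like cells, made up 33.2% of control and 50.3% of mutant frontonasal-like cells. Prrx1 was higher in 2 of the 3 parts (0.22, 0.08 to 0.35, and 0.44, 0.33 to 0.56) and had an interval that spanned 0 in the part with Vtn and Tagln (0.04). The lower Prrx2 level of frontonasal-like cells did not hold in any of the 3 parts, at 0.13 (0.03 to 0.23), 0.12 (-0.04 to 0.27) and -0.11 (-0.23 to 0.02). Twist1 was lower in 1 part (-0.22, -0.32 to -0.11), level in another (-0.01, -0.09 to 0.08) and higher in the part with Vtn and Tagln (0.17, 0.03 to 0.31), where its level was lowest.

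Maxillary-like cells, level as a whole for Zeb2 and Prrx1, held opposite differences in their 2 main parts. The first part, of 405 control and 327 mutant cells, lay in fine cluster 0, which was named frontonasal-like. The other lay in fine cluster 2, named maxillary-like, which taken whole had Zeb2 at 0.74 (0.51 to 0.98) and Prrx1 at -0.11 (-0.16 to -0.07). Zeb2 was lower in the first part (91.1 to 71.6 CPM, -0.35, -0.54 to -0.16) and higher in the other (18.4 to 29.8 CPM, 0.69, 0.42 to 0.96). Prrx1 was at 0.25 (0.18 to 0.32) and -0.08 (-0.13 to -0.04) in the same parts, and Prrx2 at -0.14 (-0.23 to -0.06) and -0.07 (-0.15 to 0.01). Second arch-like cells had a part with the same name in the finer clustering, where Zeb2 was at 0.26 (0.04 to 0.47), and a part led by Cyp26a1, Shisa3 and Hmx1, where it went from 74.1 to 126.8 CPM (0.78, 0.48 to 1.07). The latter made up 22.0% of control and 36.1% of mutant second arch-like cells. Prrx1 was lower in both of these parts, at -0.30 (-0.38 to -0.22) and -0.40 (-0.50 to -0.29), whereas Prrx2 was higher in the first (0.21, 0.08 to 0.35) and not in the second (0.04, -0.13 to 0.21). Mandibular-like cells fell almost wholly into 1 fine cluster, where Prrx1 was at -0.25 (-0.31 to -0.19) and Prrx2 at 0.15 (0.05 to 0.24).

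Of the Snai pair, only Snai1 in frontonasal-like cells differed beyond counting error in the 4 facial clusters. There it was lower in the mutant library (74.1 to 63.6 CPM, -0.22, -0.36 to -0.08), and its intervals in the other 3 facial clusters spanned 0. In the 3 finer parts of frontonasal-like cells Snai1 was at -0.23 (-0.45 to -0.01), -0.14 (-0.41 to 0.14) and 0.19 (-0.07 to 0.45). Snai2 had log2 ratios between -0.01 and 0.05 in the 4 facial clusters. Each of these intervals spanned 0 and none reached beyond 0.22 in either direction, so that a larger difference of Snai2 was outside the counting error there.

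**Figure D4:**
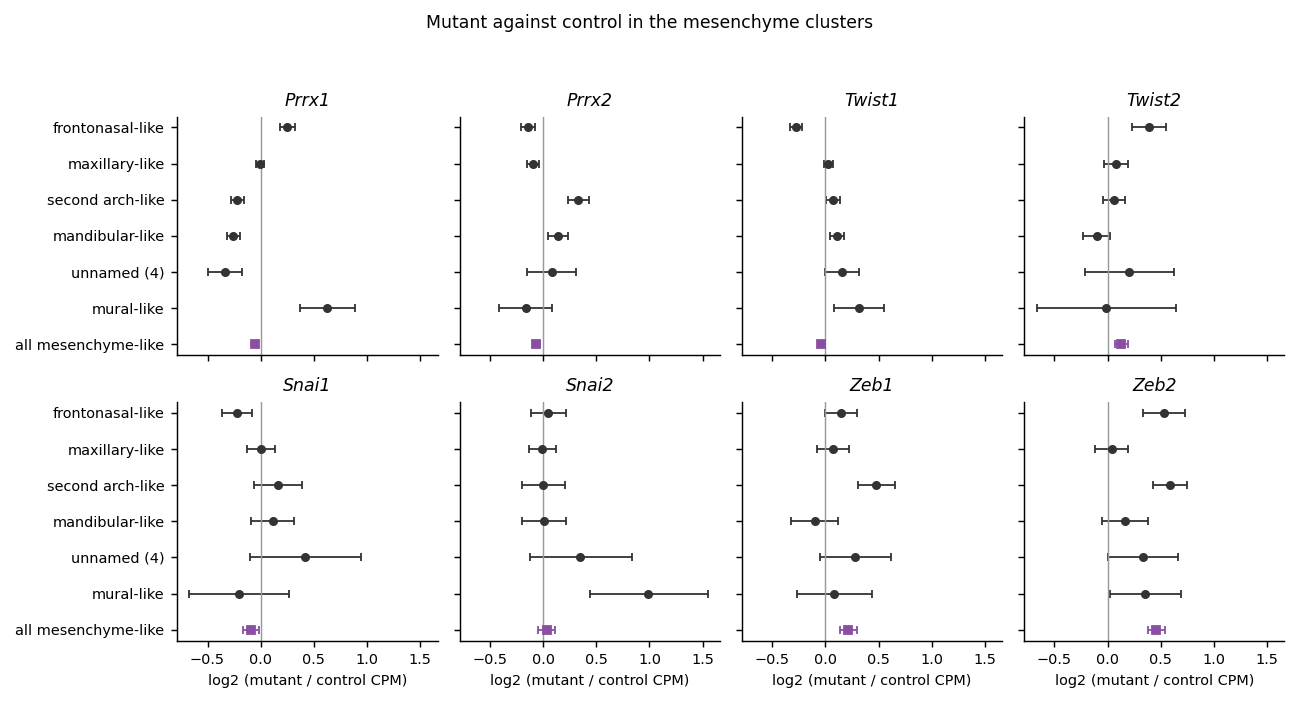
Log2 ratio of mutant over control CPM for each gene in the 6 mesenchyme clusters (circles) and in all mesenchyme-like cells (squares), with 95% counting intervals and a line at 0. Prrx1 is above 0 in frontonasal-like (0.25) and mural-like cells (0.625) and below it in second arch-like (-0.22) and mandibular-like cells (-0.26), with Prrx2 on the opposite side in each of these, although its mural-like interval spans 0.

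The mural-like cluster, of 84 control and 118 mutant cells, held the 2 member ratios farthest from 0 among the 6 clusters, those of Snai2 and Prrx1. Prrx1 went from 184.1 to 283.9 CPM (0.625, 0.36 to 0.89), Snai2 from 40.1 to 79.2 CPM (0.98, 0.44 to 1.55) and Twist1 from 249.9 to 310.8 CPM (0.31, 0.08 to 0.55). The Snai2 counts were 39 and 106 UMIs. Of the 6 members with at least 100 UMIs, 3 were higher by 0.32 or more (Prrx1, Snai2 and Zeb2) and none was lower, beside 7.53% and 5.3% of 2338 genes. Snai1 measured 75.1 and 65.0 CPM, with an interval that spanned 0, so that its share of the Snai pair was 65.2% (55.6 to 73.9) in control and 45.1% (37.9 to 52.4) in mutant. The summed mural markers of this cluster were 1046 and 1625 CPM. In the unnamed, doublet-rich cluster Prrx1 went from 384.6 to 304.4 CPM (-0.34), and of 7 members with at least 100 UMIs 2 were higher (Snai2 and Zeb2, with intervals that spanned 0) and 1 lower (Prrx1) by this mark, beside 14.6% and 2.81% of 4091 genes.

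Thinned mesenchyme-like cells held a mean of 3.17 of the 8 genes in control and 3.26 in mutant, against 0.94 to 1.35 in the other classes. No member was found in 63 control (1.69%) and 33 mutant (1.19%) mesenchyme-like cells, and all 8 were found in 0 of 3719 control and 2 of 2775 mutant cells. Pairs of members were found together about as often as the product of their shares. Prrx1 and Twist1 were seen together in 53.6% of control cells and 53.8% of mutant ones. The ratio of found to product was highest for Snai1 with Snai2 in mutant cells, at 1.23 beside 1.11 in control, and lowest for Twist2 with Zeb2, at 0.78 in control and 0.85 in mutant. These ratios mix cells of all regions and were not tested.

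In brain progenitor-like cells no member differed beyond its counting interval, and none of the 5 with at least 100 UMIs passed the mark of 0.32, beside 4.17% of 9667 genes higher and 2.75% lower. In neuron-like cells Zeb1 and Zeb2 had intervals that spanned 0. Prrx1 was lower there, from 24.6 to 11.02 CPM (-1.16, -1.46 to -0.86), with Twist1 from 23.9 to 12.5 CPM (-0.94, -1.23 to -0.64), so that 3 of 5 members (with Prrx2) were lower by 0.32 or more and none higher, beside 2.92% and 5.21% of 9599 genes. These counts came from few cells. The 10 cells with most Prrx1 held 57.4% of its neuron-like UMIs in control and 50.3% in mutant. Without the doublet-rich clusters the log2 ratio of Prrx1 was -0.43 (-1.06 to 0.21), at 4.92 and 3.65 CPM, that of Prrx2 -0.53 (-1.16 to 0.10), that of Twist1 -0.91 (-1.54 to -0.29) and that of Zeb1 -0.14 (-0.25 to -0.03). After thinning, 4.50% and 2.72% of neuron-like cells held a Prrx1 UMI, beside 4.16% and 3.59% of brain progenitor-like cells.

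In glia-like cells Zeb1 was lower in the mutant library, from 88.5 to 55.3 CPM (-0.68, -0.93 to -0.43), while Zeb2, at its highest level here, was slightly higher, from 313.1 to 349.5 CPM (0.16, 0.05 to 0.27), which TMM scaling brought to 0.09 (-0.02 to 0.20). Zeb1 thus gave 22.0% of the UMIs of the Zeb pair in control and 13.7% in mutant. Twist1 went from 41.7 to 30.6 CPM (-0.45, -0.81 to -0.10), and with Zeb1 2 of the 5 members with at least 100 UMIs were lower by 0.32 or more and none higher, beside 12.7% and 13.2% of 6485 genes. The 10 neuron markers, all found in both libraries, summed to 2491 CPM in control and 472 CPM in mutant glia-like cells, and Zeb1 was highest in neuron-like cells. Their part in the Zeb1 value was not tested. Prrx1 in this class rested on few cells, since 10 cells held 72.1% of its UMIs in control and 94.3% in mutant. Its log2 ratio was 0.15 with called doublets and -1.96 without them (28.5 and 7.31 CPM).

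Cell cycle phase was scored from expression, and UMIs were summed by phase and library. In control mesenchyme-like cells Prrx1 and Twist1 were lowest in G1 (409.1 and 380.3 CPM) and highest in G2M (557.0 and 531.5 CPM). Zeb2 was instead highest in G1 (61.8 CPM) in these cells, and at 36.6 and 40.1 CPM in S and G2M. Zeb2 was higher in the mutant library in each phase, with log2 ratios of 0.56 in G1, 0.48 in S and 0.31 in G2M. Prrx2 had ratios of 0.12 in G1 and -0.12 in G2M. Snai1 was level in G1 and at -0.25 in G2M. Phase calls read free transcripts too, and no cycling was inferred from them.

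Genes that act with these factors were examined in mesenchyme-like cells as lists, by how many members with at least 100 UMIs lay 0.32 or more higher on the log2 scale (6.8% of all genes) or lower (2.65%), with the median log2 ratio beside 0.02 over all genes. Of 7 bHLH partners and Id inhibitors none passed in either direction (median -0.02), with Id4 highest at 0.08 and Id2 lowest at -0.09. E proteins such as Tcf4 are the dimer partners of TWIST, and Id proteins keep E proteins from DNA. Of 10 co-repressors of SNAI and ZEB none passed (median 0.04), with the LIM protein gene Ajuba highest at 0.25 and Ctbp2 lowest at -0.16. Of 14 upstream TGF-beta, Wnt, Notch and FGF genes 2 were higher, Tgfb1 at 0.71 (2.20 to 3.60 CPM) and the Notch target Hey1 at 0.43 (8.52 to 11.47 CPM), and none was lower (median 0.03), with Tgfb2 lowest at -0.27. Of 12 other neural crest transcription factors 10 had at least 100 UMIs, of which Foxc1 (0.32) and Foxc2 (0.35) were higher and Msx2 (-0.56) and Myc (-0.45) lower, with a median of -0.04.

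Genes of cell adhesion, matrix and the epithelial state, on which these factors act, were examined in the same way. Of 12 mesenchymal adhesion and matrix genes 11 had at least 100 UMIs, with a median log2 ratio of 0.23, and 4 were higher by 0.32 or more. These were Sparc, a matrix glycoprotein gene (108.7 to 154.5 CPM, 0.51), the matrix protease gene Mmp14 (54.2 to 72.5 CPM, 0.42), the intermediate filament gene Vim (195.8 to 260.9 CPM, 0.41) and the N-cadherin gene Cdh2 (53.7 to 68.2 CPM, 0.34). Cdh6, a cadherin gene of premigratory and migrating crest, was lower (45.5 to 33.9 CPM, -0.42). Of 13 epithelial adhesion genes only 4 had at least 100 UMIs, and 2 of these, Krt18 (3.02 to 3.91 CPM, 0.38) and the plakoglobin gene Jup (5.62 to 7.26 CPM, 0.37), were higher, while Tjp1 was lowest at 0.09. Cdh1, the E-cadherin gene that SNAI and ZEB proteins repress, had 1 control and 6 mutant UMIs. Of 11 regulators of the epithelial state 1 had at least 100 UMIs, Klf4, which was lower (8.84 to 4.68 CPM, -0.92, -1.16 to -0.68), and most so in second arch-like cells (16.1 to 4.54 CPM, -1.83, -2.33 to -1.35).

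The genes most like each factor were found over 34 points, 17 clusters in each of 2 libraries, by the Pearson correlation of log2(CPM + 1) among 11330 genes. Points of 1 library share its depth, and the points take in both mesenchyme and other clusters, between which most members differed widely. The gene most like Prrx1 was Twist1 (r = 0.97), followed by Fli1 and the PDGF receptor gene Pdgfra. Twist1, Twist2 and Snai2 each had Dnm3os among their nearest 3, with r of 0.98, 0.98 and 0.97. Snai1 was nearest to the endothelin receptor gene Ednra (0.98) and Prrx2 to Igfbp4 (0.95). Zeb1 had weaker likeness, to Serping1 (0.80), and Zeb2 to Fabp7, a gene of glia and radial progenitors (0.88). With Prrx1, Zeb1 had r = -0.51 and Zeb2 r = -0.63.

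Some members overlap other genes, and whether counting used strand is not given in the sources used here, so that such counts are uncertain. The antisense gene Zeb2os had 461 control and 597 mutant UMIs over all cells, and 135 and 125 in mesenchyme-like cells, where its interval spanned 0 (-0.07 to 0.66), beside 2485 and 2574 of Zeb2. Within Twist2, the sense intronic gene Gm29101 had 809 and 750 UMIs and the antisense gene Gm29100 had 101 and 88. The overlapping genes Gm20471 of Prrx1 (11 and 2 UMIs) and Gm10125 of Zeb1 (120 and 144 UMIs) were far below their partners in count.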

How the data were processed

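The authors sequenced 10x Genomics 3′ libraries of sorted cells, and the deposited matrices hold raw UMI counts per gene and barcode, made with Cell Ranger 6.0.0 per the file headers on mm10. Submitters' notes also name bcl2fastq and Seurat 4.3.0. The strand setting is not given in the sources used here. The control library held 6148 barcodes and 83542433 UMIs and the mutant library 6063 and 79206144. Cells with at most 10% mitochondrial UMIs and 200 to 7500 genes were kept (523 control and 476 mutant barcodes were removed).

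Libraries were integrated with Seurat 5.3.0 (R 4.3.3, 2000 variable genes, 30 dimensions, resolution 0.05), and mesenchyme-like and other cells were clustered again (20 dimensions, resolution 0.2). The 8 members, 22 genes expected to differ and 6 sex-linked genes were left out of clustering. A cluster was named from marker lists where at least 3 of its markers were higher than in other cells and its leading genes did not go against the name. This naming rule was settled after the clusters had been seen. Doublets were called with Scrublet in scanpy 1.11.5 and kept, and removed as an alternative. They were 1.65% of control and 3.06% of mutant cells.

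UMIs were summed per library and cell group, and levels were UMIs per 1000000 UMIs of the group (CPM). Poisson, binomial and ratio intervals were exact (Clopper-Pearson for shares) and cover counting error only (scipy 1.17.1, numpy 2.4.6). Cells are not replicates, and with 1 library per group no test was made. A gene was counted as higher or lower past a log2 ratio of 0.32 where 1 or both libraries had at least 100 UMIs. Shares of cells with a UMI were compared after thinning each cell to 5000 UMIs, leaving shallower cells out. Ratios were checked on simulated counts that held counting error only, so the check does not cover the spread between cells, embryos or libraries. Alternatives were TMM scaling (edgeR 4.0.16), doublet removal, equal weight per cell, thinning, other resolutions, no integration, members kept among clustering features and fixed cluster shares. Leaving out doublet-rich clusters and haemoglobin-rich barcodes, and splitting clusters by a finer clustering (resolution 0.4), were added after the data had been seen.

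The named genes are the 8 members, the targeted genes, genes that overlap members and the 3 genes most like each member. From each list the highest, the lowest and any other past 0.32 are named, and Tcf4 and Cdh1 besides. Members and lists were chosen with earlier results of these data known.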

Additional observations from a re-analysis of the deposited data

Results flagged for a closer look

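For 3 genes the mesenchyme clusters lay on opposite sides of 0 in the log2 ratio of mutant over control CPM, with counting intervals that left out 0, and the difference between the clusters was not tested. With 1 library per group, the direction of each gene in a cluster rests on 1 pair of libraries. Prrx1 was higher in mutant frontonasal-like (0.25) and mural-like cells (0.625), and lower in second arch-like (-0.22), mandibular-like (-0.26) and the unnamed, doublet-rich mesenchyme cells (-0.34). Prrx2 was higher in second arch-like (0.33) and mandibular-like cells (0.15), and lower in frontonasal-like (-0.14) and maxillary-like cells (-0.10). Twist1 was higher in second arch-like (0.072), mandibular-like (0.11), unnamed mesenchyme (0.16) and mural-like cells (0.31), and lower in frontonasal-like cells (-0.27). With TMM scaling the Twist1 intervals of second arch-like and unnamed mesenchyme cells spanned 0 (0.03, -0.04 to 0.10, and 0.06, -0.10 to 0.22). The lower frontonasal-like Prrx2 level did not hold in any of the 3 parts into which a finer clustering split these cells, and the lower Twist1 level held in 1.

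For 2 genes the classes lay on opposite sides in the same sense, again not tested. Twist2 was higher in mutant mesenchyme-like cells (0.13) and lower in neuron-like cells (-0.94), where its counts were 58 and 49 UMIs. Without the doublet-rich clusters 15 and 13 of these UMIs remained, with a log2 ratio of -0.93 and an interval that spanned 0 (-2.12 to 0.24). Zeb1 was higher in mesenchyme-like (0.22) and lower in glia-like cells (-0.68).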

How the results depend on the processing

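No log2 ratio of the 8 genes in mesenchyme-like cells changed sign where its interval had left out 0. All 8 moved by less than their counting interval when doublets were removed, at a class resolution of 0.1, without integration, with members kept among the clustering features (7 of 8 then were) and without the doublet-rich clusters and haemoglobin-rich barcodes. Prrx1 moved from -0.06 to -0.090 with TMM scaling and to -0.081 with equal weight per cell, Twist1 from -0.04 to -0.070 with TMM scaling. With cluster shares held fixed Prrx2 was at -0.016, Twist1 at -0.0081 and Zeb2 at 0.33. Zeb2 was at 0.59 in thinned cells. Of other member ratios, by class and cluster, 21 of 156 moved beyond their interval with doublets removed, 14 of 32 at resolution 0.4 and 0 of 156 with TMM scaling. Over the 4 classes and 6 mesenchyme clusters, 35 of 80 intervals left out 0, of which 3 spanned it with TMM scaling (Zeb2 in glia-like, Twist1 in second arch-like and unnamed mesenchyme cells). Genes past the fold in mesenchyme-like cells numbered 1104, or 2101 with a minimum of 30 UMIs and 395 at 1.5-fold, and in brain progenitor-like, neuron-like and glia-like cells 669, 780 and 1675, or 1642, 1793 and 3371, and 150, 184 and 624. No paired analysis was possible because each group had 1 library. The spread between embryos is unknown, genotype and sex cannot be told apart, and low counts limit Snai1, Snai2 and Twist2 outside the mesenchyme.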

Other observations

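Prrx2 was also found in neural cells with little Prrx1. In the hindbrain progenitor-like cluster (141 control and 185 mutant cells) Prrx2 measured 24.1 CPM in control and 21.3 CPM in mutant, with 39 and 47 UMIs, an interval of the log2 ratio that spanned 0. Its UMIs lay in 30 control and 34 mutant cells, and after thinning 10.1% (5.66 to 16.4) and 10.2% (6.14 to 15.6) of cells held one. Prrx1 had 1 and 3 UMIs and Twist1 4 and 10 UMIs in the same cells, although both are the more counted gene of their pair in the mesenchyme-like class. The thinned Prrx1 share there was 0 of 138 control cells and 1 of 177 mutant cells.

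The reverse was seen in an unnamed cluster led by the forebrain genes Nkx2-1 and Rax, with 50 control and 59 mutant cells. Prrx1 had 12 and 29 UMIs there (19.6 and 46.6 CPM, log2 ratio 1.245, 0.23 to 2.35) and Prrx2 had 2 and 1. After thinning, 2 of 50 control cells and 9 of 56 mutant cells held a Prrx1 UMI. Zeb1 measured 75.3 and 131.7 CPM in this cluster (0.81, 0.27 to 1.36), whereas the Zeb2 interval spanned 0. Zeb1 was highest of all clusters in an unnamed neural one led by Tfap2d, Dbx1 and Neurog1, at 199.7 and 173.7 CPM (-0.20, -0.39 to -0.01). These clusters were small, and no difference between them was tested.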
